A study of Mus musculus with 16 samples.

Results

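The cells described here are the estrogen receptor-negative (ER-) luminal cells of the pubertal mouse mammary gland, compared between ducts and terminal end buds (TEBs). They were chosen by measured values: among cells with at most 5% spike-in counts, 5000 to 120000 UMIs and 200 to 6000 genes, a cell entered the class when Krt18, Elf5, Kit, Wfdc18, Ltf and Aldh1a3 had a higher mean z-score than the marker lists of basal, ER+ luminal, fibroblast, myeloid and endothelial cells. Of 1419 deposited cells, 1318 were within the limits and 203 fell in this class, of which 95 came from ducts, 57 from TEBs and 51 from nipples. The duct and TEB cells, 152 of the 976 that passed in these locations, were summed per fragment, which gave 6 duct fragments (9 to 20 cells each) and 5 TEB fragments (5 to 17 cells each). TEB fragment 31, with 5 cells and 159394 UMIs, stood just inside the limit of 5 cells, and TEB fragment 43, with 3 cells and 151932 UMIs, just outside it.

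Single fragments were dissected (6 ducts, 6 TEBs and 4 nipples), and the cells of each were sorted by FACS into 96-well plates. The 3' ends of transcripts were sequenced with molecular tags (UMIs), and reads that share a tag count once. All animals carried Krt14-Cre and the Rosa26-mTmG allele, were of strain C57BL/6 in the labels and were 5 weeks of age, and the labels separate the duct, TEB and nipple groups only by the place of dissection. Cre is driven there by the promoter of Krt14, a basal keratin, and mTmG is a fluorescent reporter of it. The labels do not say which mouse a fragment came from, so p-values measure the spread between fragments, which may share an animal. In sums over cells, fewer cells with a transcript and less of it per cell cannot be told apart.

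Luminal cells line the lumen of the mammary duct. One branch carries the estrogen receptor and receives hormone signals. The other, ER-, depends on the transcription factor Elf5, carries the receptor Kit and holds the progenitors that give rise to milk-secreting alveolar cells in pregnancy. TEBs are the bulbous tips that drive duct elongation through the fat pad in puberty, and the duct behind them is the tissue they have laid down. The comparison asks how cells of 1 lineage differ between the growing tip and the formed duct.

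The genes of the class rule give a description of the cells and no test, since they chose them. Levels are summed UMIs as CPM, that is, per library total scaled by TMM (trimmed mean of M-values). Wfdc18, a secreted WAP-type protein, was at 7225 ± 1806 CPM in duct (SD, n = 6) and 6987 ± 1551 CPM in TEB (SD, n = 5), and Kit was at 136 ± 85.1 and 147 ± 45.1 CPM. Elf5 was at 39.2 ± 15.3 CPM in duct and 51.4 ± 32.9 CPM in TEB, against a pooled 0.775 CPM in ER+ luminal cells. That ER+ value is not TMM-scaled, and a low Elf5 level there is in part set by the rule. These markers of the class were thus detected in both locations. Aldh1a3, a retinaldehyde dehydrogenase, stood apart from the other rule genes: its levels were 1396 to 2406 CPM in duct (median 1729) and 58.9, 567.8, 720, 651 and 348 CPM in TEB fragments 31, 32, 33, 34 and 42. No TEB fragment reached the lowest duct fragment. Ltf (lactotransferrin) ranged from 177 to 1495 CPM in duct and from 238 to 370 CPM in TEB, and the locations overlapped.

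The class is a range of a score. Of the 152 cells, 15 had a lead of less than 0.5 over their next class, 35 had ER+ luminal as that next class, and 40 cells placed elsewhere had ER- luminal next within 0.5. After thinning to 5000 UMIs a cell, which left out none of the 152 cells, the rule genes other than Krt18 summed to a median of 50 UMIs in duct and 39 in TEB cells, those of the basal list to 2.0 and 0.0, those of the ER+ list to 1.0 and 0.0, and those of the fibroblast and myeloid lists to 0.0 in both. In the summed fragments, the 10 ER+ luminal genes outside the rule reached 298 to 1069 CPM in duct and 326 to 1623 CPM in TEB (1, Tnfsf11, at 0), the 12 basal genes 262 to 447 and 110 to 386 CPM (1, Oxtr, at 0), the 10 fibroblast genes 79.4 to 167 and 86.1 to 339 CPM, and the 9 leukocyte genes 10.8 to 57.0 and 13.9 to 50.2 CPM (Cd3e, Cd79a and Itgax at 0). The medians over fragments in duct and TEB were 931 and 424 CPM for the ER+ genes and 297 and 238 CPM for the basal genes. For the fibroblast genes they were 100 and 202 CPM, and for the leukocyte genes 29.4 and 19.6 CPM. The 16 ER- luminal genes outside the rule summed to 18885 to 25262 CPM in duct and 11324 to 21083 CPM in TEB. Pooled over both locations, these 16 genes were at 18698 CPM in ER- and 15856 CPM in ER+ luminal cells. Their sum thus set the 2 luminal classes little apart. The 5 ER+ genes of the rule other than Krt18 summed to 69.1 to 832 CPM in duct (median 513). In TEB they summed to 62.7 to 469.5 CPM (median 153). Keratinocyte genes, 3 of 7 at 0, summed to 377 to 802 CPM in duct and 267 to 615 CPM in TEB. The 5 basal genes of the rule summed to 209 to 665 CPM in duct and 110 to 2121 CPM in TEB, the highest in TEB fragment 31, where Krt17 alone was at 1143 CPM after TMM scaling (the sums of marker lists are not TMM-scaled). RNA from other wells was estimated at 3.13 to 14.8% of the pooled fragment rate in duct and at 2.16 to 5.56% in TEB. All 95 well barcodes in the table occurred in at least 2 fragments, by the design of the plates. The part of these values in the results was not tested.

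The sums held 419159 to 694498 UMIs in duct and 159394 to 867672 UMIs in TEB, and the median cell was deepest in TEB fragment 42 (72202 UMIs). Outside the class rule, 6576 genes could be tested, and 56 of them (0.852%) differed between duct and TEB (edgeR quasi-likelihood test, adjusted p under 0.05). Of these, 50 (0.76% of the genes tested) were higher in duct and 6 (0.0912%) higher in TEB, so that most of the calls were higher levels in the formed duct. When libraries were scaled to their totals alone, 32 genes were higher in duct and 11 in TEB, and the median difference of all genes moved from 0.0067 to -0.099 on the log2 scale. With only cells whose lead over the next class was at least 0.5, 49 genes were higher in duct and 1 in TEB. Fragments of duct and TEB did not overlap for 42 of the 56 genes, against 126 of all 6576 genes (1.92%). The calls were made on these same fragments, so the larger share among the 56 follows in part from the call and adds no support. The 50 genes higher in duct had log2 differences of 0.54 to 3.87, with 30 above 1.

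The count rested on the set of fragments. It was 31 without duct fragment 31, 37 without duct fragment 52, 35 without TEB fragment 32 and 26 without TEB fragment 42. Comparing only fragments whose title number starts with 3 left 9 genes, and blocking on that first digit, whose meaning the labels do not give (3, 5 or 6 in duct and 3 or 4 in TEB), left 10, among them Lgals3, Krt7, Tm4sf1 and Anxa2.

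**Figure D1:**
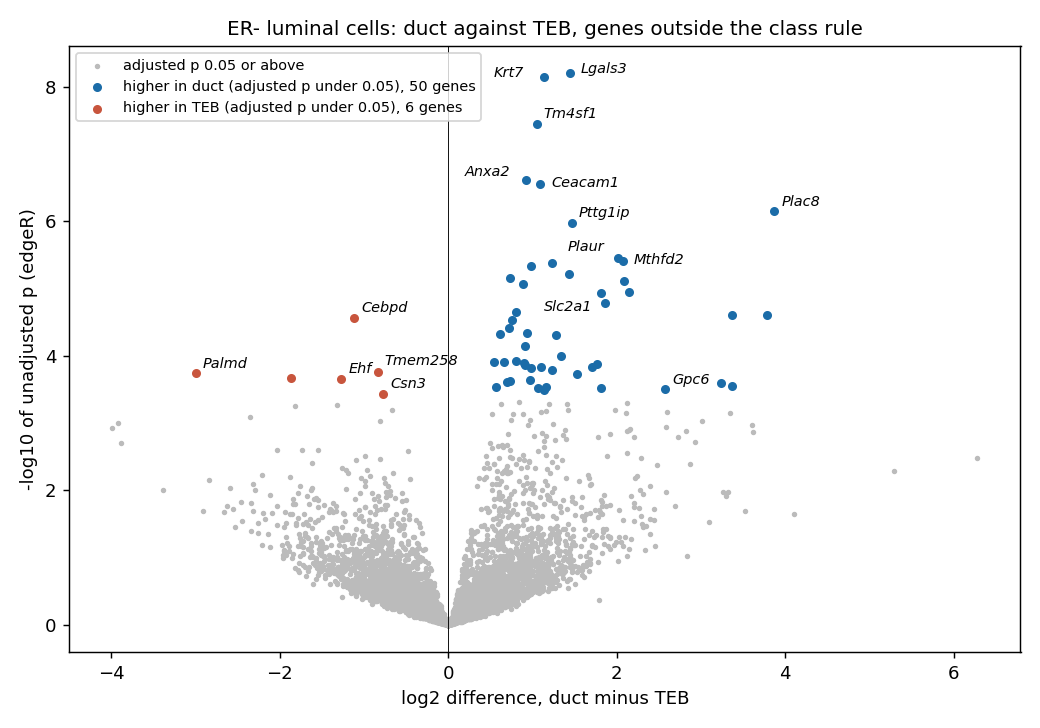
Each point is 1 of the 6576 genes tested outside the class rule, with the log2 difference of duct minus TEB on the x axis and -log10 of the unadjusted p of the edgeR test on the y axis; colour marks the 50 genes higher in duct and the 6 higher in TEB at an adjusted p under 0.05. The coloured points lie mostly on the duct side, with Lgals3 and Krt7 at the top and Plac8 farthest to the right among them.

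Lgals3 encodes galectin-3, a sugar-binding protein found inside and outside the cell (chr14:47367751-47386160, plus strand, GRCm38). Its levels were 2341 to 3314 CPM in duct (median 2742) and 1473, 924, 1219, 1065 and 533 CPM in TEB fragments 31, 32, 33, 34 and 42. Every duct fragment was above every TEB fragment. The log2 difference was 1.44 ± 0.18 (SE), a 2.72-fold difference (adjusted p = 2.4e-05), and it passed the threshold in all 27 alternative settings, at log2 values of 1.22 to 1.61. The nipple level, 5054 ± 834 CPM (SD, n = 4), was higher still.

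Krt7, a keratin of simple epithelia (chr15:101411043-101430313, plus strand), ranged from 1639 to 2550 CPM in duct (median 2038) and was at 937, 941, 844, 1182 and 813 CPM in TEB. The locations did not overlap, and the log2 difference was 1.14 ± 0.14 (adjusted p = 2.4e-05). Tm4sf1, a tetraspanin-like surface protein, ranged from 3738 to 5324 CPM in duct (median 4173) and from 1773 to 2468 CPM in TEB, a log2 difference of 1.05 ± 0.14 (adjusted p = 7.8e-05). Ceacam1, an adhesion molecule of epithelial surfaces, ranged from 939 to 1594 CPM in duct and from 468 to 655 CPM in TEB (log2 1.09 ± 0.17, adjusted p = 0.00037). In single cells thinned to 5000 UMIs, 92.6% of the duct cells and 73.7% of the TEB cells held a Ceacam1 UMI, against 0.0% and 1.04% of the fibroblasts. Without thinning these shares were 98.9%, 91.2%, 24.3% and 12.5%, at median depths of 26575, 38099, 32696 and 36132 UMIs a cell. For Krt7 the thinned shares were 94.7% of duct and 93.0% of TEB cells, against 37.8% and 23.96% of the fibroblasts, and the unthinned ones 100% and 100%, against 91.9% and 75%.

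Pttg1ip was at 532 ± 120 CPM in duct and 194 ± 41.9 CPM in TEB (log2 1.47 ± 0.24, adjusted p = 0.00099). Plaur, the receptor that holds the protease urokinase at the cell surface, was at 397 to 836 CPM in duct (median 655) and at 41.2, 121, 308, 212 and 104 CPM in TEB, with a log2 difference of 2.02 ± 0.33 (adjusted p = 0.0028). No TEB fragment reached the lowest duct fragment for any of these genes. 1600029D21Rik was at 3868 ± 510 CPM in duct and 1637 ± 603 CPM in TEB (log2 1.24 ± 0.20, adjusted p = 0.0028). Plaur was found in 77.9% of thinned duct and 33.3% of thinned TEB cells and in 64.9% and 53.1% of the fibroblasts of these locations (97.9%, 70.2%, 86.5% and 83.3% without thinning), so the TEB share lay below that of the fibroblasts. Pttg1ip, Plaur and 1600029D21Rik, with Krt7, Tm4sf1 and Ceacam1, passed the threshold whichever fragment was left out. Of all 27 alternative settings, Pttg1ip and Ceacam1 passed in 24 each, with adjusted p up to 0.86 for both. Plaur and 1600029D21Rik passed in 25 each (adjusted p up to 0.27 and 0.53). Krt7 and Tm4sf1 passed in 26 each (adjusted p up to 0.067 and 0.074).

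Plac8 had the largest log2 difference of the 56 genes, 3.87 ± 0.62 (adjusted p = 0.00079). It was at 34.5 to 380 CPM in duct (median 178) and at 3.90 to 17.7 CPM in TEB, from 514 and 27 UMIs in all. Over these UMIs the pooled rate was 14.9 times higher in duct (exact 95% interval 10.1 to 22.9, counting error only). Of its UMIs, 34.2% were expected from other wells. In duct 158 were expected against 514 found, and in TEB 27.3 against 27, so the TEB level was at this estimate. The pooled rates make no allowance for these UMIs. The level of Plac8 in ER+ luminal cells was 889 CPM in duct and 353 CPM in TEB. The nipple level was 23.6 ± 12.95 CPM. Gpc6, a glypican of the cell surface, was at 28.6 to 138 CPM in duct and at 0.0 to 21.4 CPM in TEB (log2 2.57 ± 0.63, adjusted p = 0.038). It did not overlap between locations, but it passed in 3 of the 11 fits that left out 1 fragment, with adjusted p up to 0.18.

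**Figure D2:**
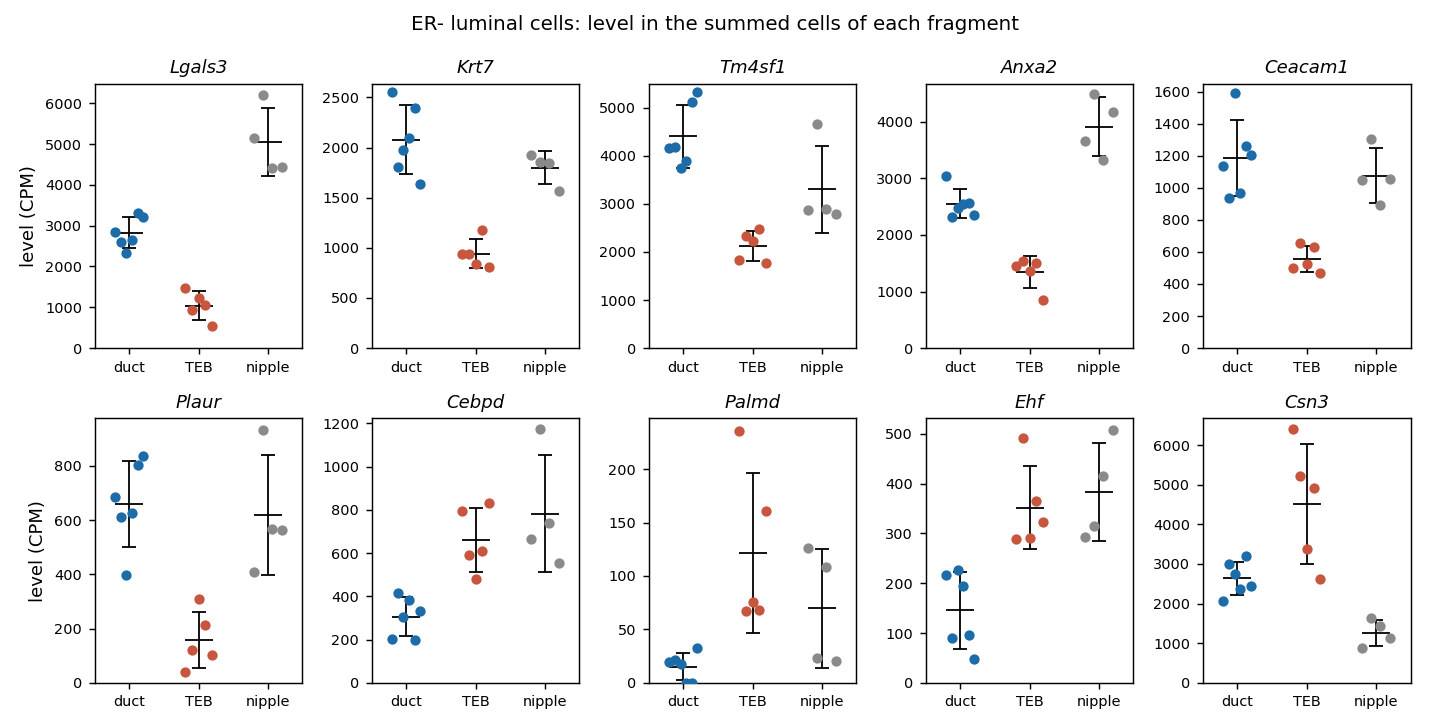
Each point is the level, in CPM on a linear axis from 0, of 1 gene in the summed ER- luminal cells of 1 fragment (6 duct, 5 TEB, 4 nipple), and the bars are the mean ± SD. Lgals3 and Krt7 do not overlap between duct and TEB, Lgals3 is highest in nipple, and Csn3 is lowest there.

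The 24 tested S100 proteins, annexins and galectins, small calcium-dependent or sugar-binding proteins of membranes and cytoplasm, held 7 genes higher in duct and 0 higher in TEB, with a median log2 difference of 0.48 against 0.0067 over all genes tested. Of all genes tested, 0.76% were higher in duct. Scaled to totals or by RLE, 5 of the 24 were higher in duct, and 3 without TEB fragment 42. With the block on the first digit of the title number 2 were, as with only title numbers starting with 3. DESeq2 called 8 higher in duct and 1 higher in TEB. Besides Lgals3 the 7 genes were Anxa2, S100a10, Anxa1, S100a6, S100a16 and Anxa8. Anxa2, an annexin that links membranes to actin, was at 2313 to 3039 CPM in duct (median 2518) and at 1443, 1539, 1366, 1501 and 858 CPM in TEB (log2 0.93 ± 0.14, adjusted p = 0.00037). S100a10, which binds annexin A2 as its light chain, was at 2655 ± 181 CPM in duct and 1599 ± 359 CPM in TEB (log2 0.73 ± 0.14, adjusted p = 0.0036). The pair of partners thus both stood higher in each duct fragment than in any TEB fragment. Of all 27 alternative settings, Anxa2 passed in 26 (adjusted p up to 0.51) and S100a10 in 24 (adjusted p up to 0.90). Anxa1 was at 3078 ± 488 and 1861 ± 431 CPM (log2 0.73 ± 0.15, adjusted p = 0.011) and lost the threshold without duct fragment 31, TEB fragment 33 or TEB fragment 42 (adjusted p up to 0.064). S100a6 was at 4577 ± 288 and 2993 ± 667 CPM (log2 0.61 ± 0.13, adjusted p = 0.012), with adjusted p up to 0.07 without TEB fragment 33 or 42.

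Of the 7 keratins outside the rule, Krt7 passed the test and all 7 had positive differences (median log2 0.80), of which 1 turned negative when libraries were scaled to totals. The share called higher in duct over all genes tested was 0.76%. Among 29 tight junction and adhesion genes (median log2 0.47), the 1 called was Cldn4, a barrier-forming claudin, at 2739 ± 489 CPM in duct and 1433 ± 558 CPM in TEB (log2 0.93 ± 0.19, adjusted p = 0.012). Its highest TEB fragment, 2354 CPM, lay above its lowest duct fragment, 2100 CPM, and the adjusted p was up to 0.064 without TEB fragment 31, 32 or 42. With the block on the first digit of the title number the list held 0 calls, as with only title numbers starting with 3. Cldn4 was found in 98.9% of thinned duct and 94.7% of thinned TEB cells, against 43.2% and 23.96% of the fibroblasts (100%, 100%, 94.6% and 78.1% without thinning). Of 28 matrix and integrin genes, Sdc4, a heparan sulfate proteoglycan, was called (2746 ± 867 and 1567 ± 273 CPM, log2 0.81 ± 0.18, adjusted p = 0.026), and it passed in 3 of 11 fits without 1 fragment (adjusted p up to 0.10). Scaling to totals left 0 calls in this list of median log2 0.35, as did leaving out TEB fragment 42, where the median was 0.13.

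The actin cytoskeleton list (36 tested, median log2 0.15) held 3 genes higher in duct and 0 higher in TEB. Over all genes tested, 0.76% were higher in duct and 0.0912% higher in TEB. Actg1, cytoplasmic gamma actin, was at 3315 ± 445 CPM in duct and 1953 ± 518 CPM in TEB (log2 0.77 ± 0.16, adjusted p = 0.0084). Myl12a, a regulatory myosin light chain, was at 2258 ± 202 and 1552 ± 132 CPM (log2 0.54 ± 0.12, adjusted p = 0.026). Actn1, the actin crosslinker alpha-actinin 1, was at 161 ± 77.3 and 51.4 ± 25.5 CPM (log2 1.71 ± 0.39, adjusted p = 0.027). Without TEB fragment 42 the list held 0 calls (adjusted p 0.064 for Actg1) and a median of 0.070, and scaling to totals left 1. The block on the first digit of the title number left 0 calls as well, and title numbers starting with 3 alone left 1.

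In the list of Myc and amino acid supply, 3 of 14 tested genes were higher in duct and 0 higher in TEB (median log2 0.75), against 1 without TEB fragment 42. Over all genes tested, 0.76% were higher in duct. With the block on the first digit of the title number the list held 0 calls (median 0.45). Title numbers starting with 3 alone also left 0 (median 0.48). Mthfd2, a mitochondrial enzyme of one-carbon metabolism, was at 138 to 226 CPM in duct (median 180) and at 23.6, 40.3, 69.8, 26.0 and 41.6 CPM in TEB, a log2 difference of 2.08 ± 0.37 (adjusted p = 0.0028). It passed whichever fragment was left out, and in 23 of all 27 alternative settings, with adjusted p up to 0.40. Mthfd2 UMIs occurred in 43.2% of thinned duct and 8.77% of thinned TEB cells, against 35.1% and 45.8% of the fibroblasts (64.2%, 28.1%, 67.6% and 72.9% without thinning). Myc, the growth-promoting transcription factor, was at 181 to 508 CPM in duct (median 287) and at 153, 151, 155, 140 and 49.4 CPM in TEB (log2 1.34 ± 0.30, adjusted p = 0.023). It did not overlap, though the gap was narrow, and the adjusted p was up to 0.082 without duct fragment 52, duct fragment 62 or TEB fragment 42. Slc38a2, a neutral amino acid transporter, was at 394 ± 29.8 and 201 ± 67.2 CPM (log2 0.97 ± 0.23, adjusted p = 0.033) and passed in 2 of 11 fits without 1 fragment. Slc2a1, the glucose transporter GLUT1, was the 1 gene called of 17 in the glycolysis list, whose median log2 was -0.11. It was at 262 to 486 CPM in duct and at 64.8, 40.3, 169, 134 and 32.5 CPM in TEB (log2 1.87 ± 0.36, adjusted p = 0.0061), and it too passed whichever fragment was left out. Slc2a1 passed in 23 of all 27 alternative settings, with adjusted p up to 0.29. The block on the first digit of the title number left 0 calls in this list, and the median was -0.27 without TEB fragment 42.

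Among 27 tested transcription factors of mammary epithelium, 2 were higher in duct and 2 higher in TEB (median log2 -0.05), against 1 and 1 without TEB fragment 42 (median -0.11). The shares over all genes tested were 0.76% higher in duct and 0.0912% higher in TEB. Sox9, a factor of luminal progenitors, was at 234 to 710 CPM in duct (median 473) and at 88.4, 165, 221, 202 and 293 CPM in TEB (log2 1.28 ± 0.27, adjusted p = 0.012). The highest TEB fragment lay above the lowest duct fragment, and the adjusted p was up to 0.054 without duct fragment 32 or TEB fragment 32. Elf3, an epithelial ETS factor, was at 188 ± 40.4 CPM in duct and 90.6 ± 17.6 CPM in TEB (log2 1.06 ± 0.26, adjusted p = 0.038), and it passed in 0 of the 11 fits without 1 fragment (adjusted p up to 0.15). In the immediate early list, whose genes answer to stimulation and to tissue dissociation, Myc and Klf6 were higher in duct, 0 of 32 were higher in TEB and the median log2 was 0.36, while without TEB fragment 42 the list held 0 calls. The list also held 0 calls with the block on the first digit of the title number. Klf6 was at 2259 ± 251 and 1529 ± 214 CPM (log2 0.57 ± 0.14, adjusted p = 0.038) and passed in 2 of 11 fits without 1 fragment.

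Cebpd and Ehf were the factors higher in TEB. Cebpd, a C/EBP family member (chr16:15887286-15891031, plus strand), was at 196 to 417 CPM in duct (median 318) and at 795, 591, 480, 609 and 832 CPM in TEB, a log2 difference of -1.11 ± 0.22 (adjusted p = 0.0081). The fragments did not overlap, and the call held without any 1 fragment. Cebpd passed in 23 of all 27 alternative settings, with adjusted p up to 0.56. Ehf, an ETS factor related to Elf3 (chr2:103263433-103303278, minus strand), was at 47.3 to 227 CPM in duct (median 145) and at 289, 491, 291, 365 and 324 CPM in TEB (log2 -1.27 ± 0.30, adjusted p = 0.033). It did not overlap either, and passed in 5 of the 11 fits without 1 fragment (adjusted p up to 0.11). Ehf UMIs occurred in 32.6% of the thinned duct cells and 68.4% of the TEB cells, against 0.0% of fibroblasts in both locations, and without thinning in 54.7% and 89.5%, against 2.70% and 5.21% of fibroblasts. In nipple both factors were near the TEB level, with 783 ± 272 CPM for Cebpd and 383 ± 99.0 CPM for Ehf.

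Palmd, Csn3 and Tmem258 were also higher in TEB. Palmd (palmdelphin) was at 0.0 to 32.3 CPM in duct and at 236, 67.2, 75.4, 68.4 and 161 CPM in TEB (log2 -3.0 ± 0.69, adjusted p = 0.029), and it was found in 2.11% of thinned duct and 28.1% of thinned TEB cells (8.42% and 45.6% without thinning). It separated the locations without overlap, with 0.0% and 1.04% of the fibroblasts holding a Palmd UMI without thinning. Csn3, kappa-casein (chr5:87925579-87932665, plus strand), was at 2078 to 3189 CPM in duct (median 2592) and at 6398, 5225, 3376, 4927 and 2620 CPM in TEB (log2 -0.77 ± 0.19, adjusted p = 0.043), with the fragments overlapping. Its UMIs occurred in 88.4% of thinned duct and 94.7% of thinned TEB cells, against 10.8% and 18.8% of the fibroblasts (96.8%, 94.7%, 37.8% and 60.4% without thinning). Tmem258 was at 367 ± 69.7 and 657 ± 164 CPM (log2 -0.84 ± 0.20, adjusted p = 0.029), overlapping as well. These 3 passed in 5 (Palmd), 4 (Csn3) and 4 (Tmem258) of the 11 fits without 1 fragment, with adjusted p of at most 0.11.

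Csn3 was the 1 of 15 tested milk and secretory genes called higher in TEB, and Mfge8, a milk fat globule protein, the 1 called higher in duct (median log2 of the list -0.22). The shares over all genes tested were 0.0912% higher in TEB and 0.76% higher in duct. Mfge8 was at 1266 ± 141 CPM in duct and 639 ± 177 CPM in TEB (log2 0.99 ± 0.18, adjusted p = 0.0028) and passed whichever fragment was left out. It passed in 24 of all 27 alternative settings, with adjusted p up to 0.86. With the block on the first digit of the title number the milk list held 0 calls and its median was -0.66, and without TEB fragment 42 the median was -0.33. Mfge8 was also the 1 gene called of the 12 tested ER- luminal genes outside the rule.

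**Figure D3:**
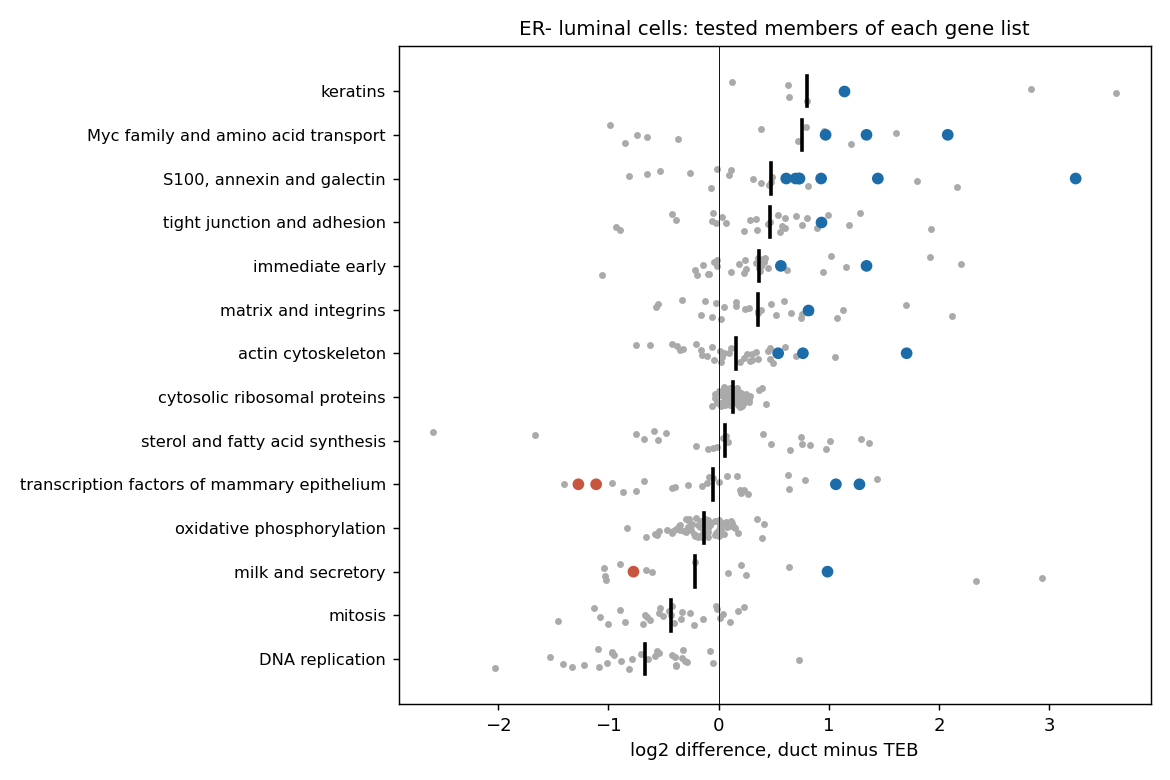
Each point is 1 tested gene outside the class rule, placed by its log2 difference of duct minus TEB within its list; large points are genes with an adjusted p under 0.05, and the black bar is the median of the list. Of the 24 S100, annexin and galectin genes, 7 are large points on the duct side, and 1 of 30 DNA replication genes has a positive difference.

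In the lists of DNA replication, mitosis, cytosolic ribosomal proteins and oxidative phosphorylation, no gene passed the edgeR test. DESeq2 gave no adjusted p for 2810 of the 6576 genes tested. A count of 0 DESeq2 calls, here and below, can thus include genes without an adjusted p. In the DNA replication list, 0 of 30 tested genes passed (4 had an unadjusted p under 0.05, all higher in TEB; 1 passed in DESeq2), 1 had a positive difference and the median log2 was -0.67. Without TEB fragment 42 the median was -0.34, with 6 of 28 positive, whereas it was -1.10 with a block on the first digit of the title number and -1.07 with only title numbers starting with 3. The mitosis list had 0 calls of 29 by edgeR and by DESeq2, 0 at an unadjusted p under 0.05 and a median of -0.43. That median was -0.12 without TEB fragment 42 (10 of 26 positive) and -0.092 with cells thinned to 5000 UMIs, where 5 genes could be tested. Its summed level was 2463 to 4832 CPM in duct and 1989, 3763, 5099, 3160 and 7227 CPM in TEB fragments 31, 32, 33, 34 and 42, so that duct lay within the TEB range. The mean difference of log2(summed CPM + 1) was -0.29 (two-sided exact permutation test, p = 0.403; the smallest p this design allows is 0.0043). Captured mouse RNA per spike-in UMI had medians of 94.6 to 148 in duct and 124, 131, 142, 143 and 142 in TEB, a mean log2 difference of -0.17 (exact permutation p = 0.147). Without duct fragment 31 that difference was -0.23 (exact permutation p = 0.0397), and with the mean over cells in place of the median it was 0.0030. Cytosolic ribosomal protein genes had 0 of 72 calls (5 at an unadjusted p under 0.05, all higher in duct; 0 in DESeq2) and a median of 0.13, and oxidative phosphorylation genes 0 of 75 (5, all higher in TEB; 0 in DESeq2) and a median of -0.13. With libraries scaled to totals these medians were 0.029 and -0.23.

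Further lists gave 0 calls in edgeR. Of 24 sterol and fatty acid genes, 1 had an unadjusted p under 0.05 in each direction (0 calls in DESeq2), and the median log2 was 0.057. Of 32 genes of ribosome biogenesis and translation, 3 had such a p, all higher in duct (1 call in DESeq2), and of 32 genes of glutathione and aldehyde detoxification 2, both higher in TEB (1 call in DESeq2). In the lists of innate defence (16 tested), growth factors and receptors (25) and interferon and antigen presentation (19), the unadjusted p was under 0.05 for 3 genes higher in duct, 3 genes higher in duct and 2 genes higher in TEB, and DESeq2 made 0 calls in each. The Notch and Wnt list (13 tested) had 1 such gene higher in duct and 2 higher in TEB, and the list of CDK inhibitors and D cyclins (4 tested) 1 higher in duct, with 0 DESeq2 calls in either.

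**Figure D4:**
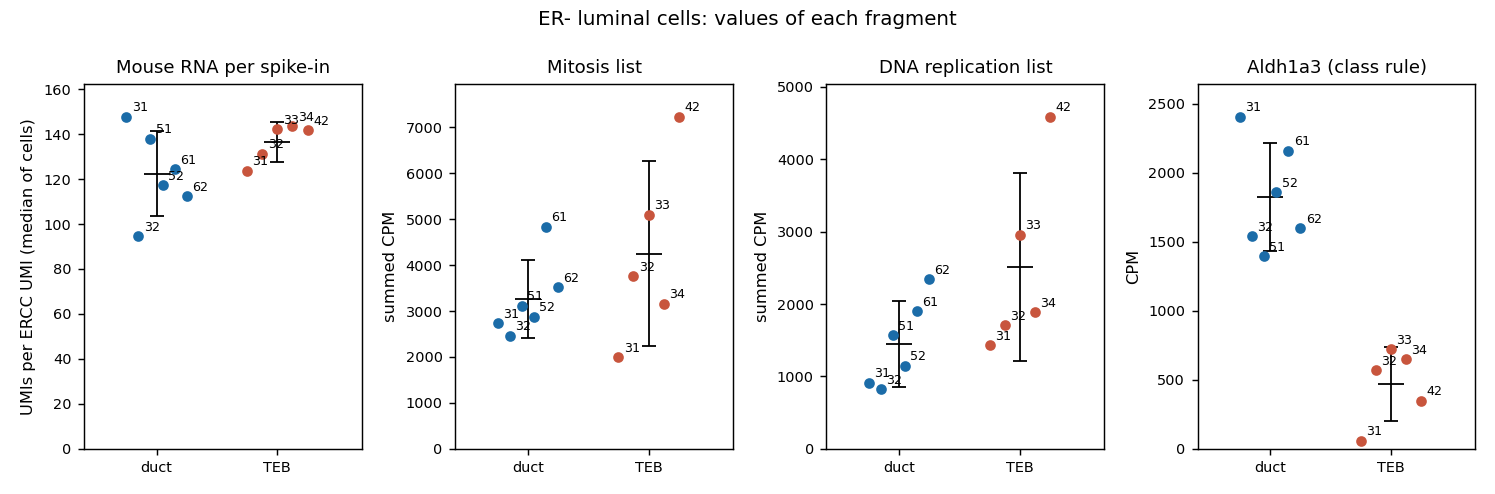
Each point is 1 fragment, labelled by its title number, with bars for mean ± SD on linear axes from 0: median mouse UMIs per spike-in UMI, summed CPM of the mitosis and DNA replication lists, and CPM of Aldh1a3, a gene of the class rule shown without a test. TEB fragment 42 has the highest mitosis sum, 7227 CPM, and the Aldh1a3 levels of duct and TEB do not overlap.

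The same 2 locations were compared in the ER+ luminal cells of the same fragments, and the difference between the classes was tested directly with the fragment as a block. In ER+ luminal cells alone, 141 of 9100 genes (1.55%) differed between duct and TEB. Of the 56 genes called in ER- cells, 54 could be tested in ER+ cells, where 43 had the same sign and 9 also passed. The share of like signs over all genes was not taken, so the 43 of 54 have no background beside them. In basal cells alone 684 of 7185 genes differed, rule genes included. Of 8943 genes tested outside the rule, 35 (0.391%) differed between duct and TEB by another amount in ER- than in ER+ luminal cells, 26 with a larger and 9 with a smaller duct minus TEB value in ER- cells. The count was 18 without the block, and 20, 23 and 23 without duct fragment 31, TEB fragment 31 and TEB fragment 32. Both classes share plates and TEB fragments, and 14 of the 35 were also among the 56 genes called above on the same ER- sums. Krt7 had the smallest p of this test. Its log2 difference was 1.14 ± 0.14 in ER- and -0.18 ± 0.13 in ER+ cells, a difference between classes of 1.34 ± 0.16 (adjusted p = 4.3e-06). TEB levels were 2366 CPM in ER+ and 943 CPM in ER- cells, whereas duct levels were 2091 and 2078 CPM. Lgals3 had 1.44 ± 0.18 and 0.26 ± 0.14 (difference between classes 1.28 ± 0.17, adjusted p = 0.00022). Anxa2 had 0.93 ± 0.14 and 0.09 ± 0.12 (0.92 ± 0.14, adjusted p = 0.000305), and S100a6 0.61 ± 0.13 and -0.14 ± 0.10 (0.81 ± 0.14, adjusted p = 0.0028). Basal cells had no part in the test between classes. In them Krt7, Lgals3, Anxa2 and S100a6 were also higher in duct, with log2 differences of 1.96, 2.66, 1.60 and 1.77. Each passed the edgeR test there, with an adjusted p of at most 0.00024.

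Fth1, the ferritin heavy chain that stores iron, went the other way. Its log2 difference was -0.47 ± 0.14 in ER- cells, which did not pass on its own (adjusted p = 0.15), and 0.37 ± 0.10 in ER+ cells (adjusted p = 0.065), but the classes differed by -0.78 ± 0.11 (adjusted p = 0.00015). Elf3 had 1.06 ± 0.26 in ER- and -0.72 ± 0.20 in ER+ cells (1.82 ± 0.36, adjusted p = 0.010). Anxa1 (0.87 ± 0.17), Myl12a (0.73 ± 0.15), S100a10 (0.59 ± 0.13), Plaur (1.56 ± 0.35) and Tmem258 (-1.02 ± 0.24) also passed the test between classes, with adjusted p of 0.016 to 0.039. For 1600029D21Rik the log2 difference was 1.24 ± 0.20 in ER- and 1.18 ± 0.21 in ER+ cells, and a difference between the classes was not detected (0.18 ± 0.25). Klf6, with 0.57 ± 0.14 and 0.53 ± 0.11, gave 0.04 ± 0.16.

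**Figure D5:**
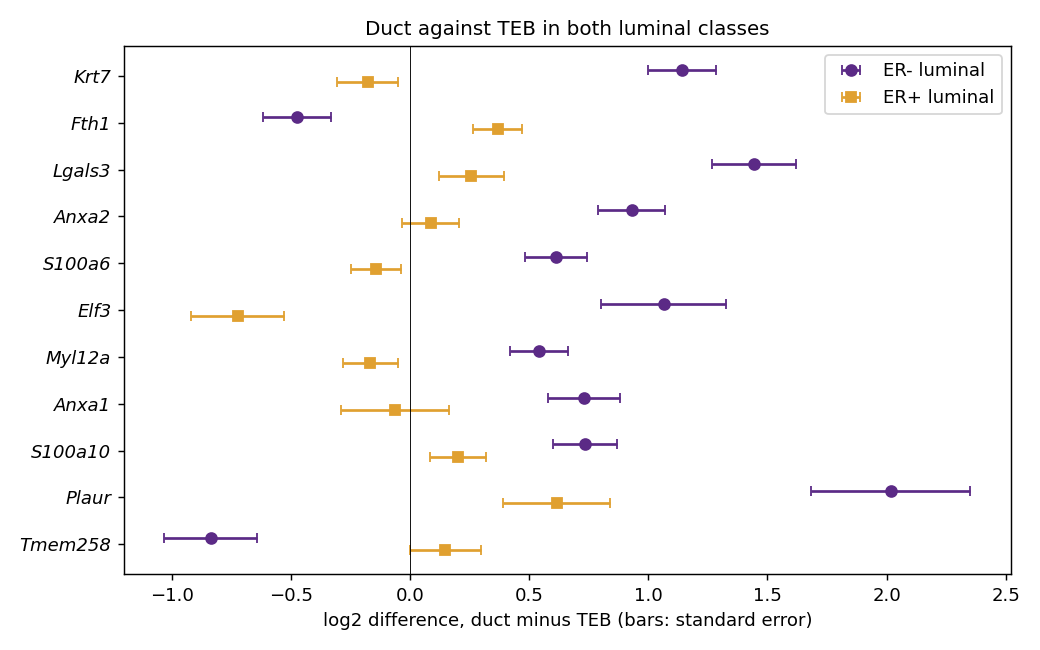
Points give the log2 difference of duct minus TEB of 11 named genes in ER- luminal (circles) and ER+ luminal (squares) cells, with bars for the standard error. All 11 passed the test between the classes; Krt7 lies at 1.14 in ER- and at -0.18 in ER+ cells, and Fth1 and Elf3 lie on opposite sides of 0.

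Promoter sequences were read for the genes that differed. AP-1 (Fos and Jun family dimers) binds TGANTCA, a motif that is its own reverse complement. RefSeq promoters, 250 bases before to 50 after the start on GRCm38, were found for 39 of the 56 genes, 38 of them higher in duct. TGANTCA occurred in 10 of these 38 (26.3%), in 308 of the 4985 tested genes with a promoter (6.18%) and in 2425 of all 27025 promoters of the RefSeq set (8.97%). TTGCNNAA, which C/EBP factors bind, occurred in 4 of 38 (10.5%) and 9.39% of tested genes, and CCGGAAG, which ETS factors bind, in 3 of 38 (7.89%) and 23.6%, on either strand. These motifs were picked after the genes were known and the shares were not tested; a match is a description of the letters and not a site of binding. The 10 genes are Anxa2, Plaur, Cldn4, Myl12a, Lmna, Spint1, F3, Emp1, S100a16 and Capn2. The stretches around the site are shown for the 4 of them described above and for F3 and Emp1, which hold a pair of sites each, written along the gene's strand with the motif in capitals.
Anxa2 (chr9:69453577-69453605, plus strand, 95 bases upstream of the start): tccaagttggaTGAGTCAcccagcagggt
Plaur (chr7:24462403-24462431, plus strand, 69 bases upstream): acccctggagcTGACTCActctttagcaa
Cldn4 (chr5:134947157-134947184, minus strand, 240 bases upstream): tctaggctggTGACTCAgtgtctgtgtc
Cldn4 (chr5:134947075-134947103, minus strand, 158 bases upstream): atactggcgggTGACTCAggggcccagga
Myl12a (chr17:71002653-71002681, minus strand, 137 bases upstream): gacctagacagTGAGTCAccctagcttcc
F3 (chr3:121723380-121723408, plus strand, 146 bases upstream): cgcggcgctgtTGAATCAcggttgagtca
F3 (chr3:121723391-121723419, plus strand, 135 bases upstream): tgaatcacggtTGAGTCAcccctttcggg
Emp1 (chr6:135362775-135362803, plus strand, 145 bases upstream): gtctgtgtgtcTGAGTCAgagggagctac
Emp1 (chr6:135362895-135362923, plus strand, 25 bases upstream): taaatccagacTGATTCAtagaaactcct

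F3, the coagulation starter tissue factor, was at 1278 to 2077 CPM in duct (median 1689) and at 548, 937, 721, 974 and 684 CPM in TEB (log2 1.1 ± 0.24, adjusted p = 0.027). Emp1, an epithelial membrane protein, was at 741 ± 233 and 264 ± 145 CPM (log2 1.53 ± 0.33, adjusted p = 0.029). Neither overlapped between duct and TEB, and both were singled out for their sites after the values were seen. None of the 7 tested genes of the AP-1 and Atf3 family passed the test themselves, with log2 differences of -1.05 for Fos, -0.20 for Fosb, -0.09 for Fosl2, -0.09 for Jun, 0.23 for Junb, 0.12 for Jund and 0.25 for Atf3 and adjusted p of 0.62 to 0.99 in edgeR. Of the 7, 0 had an unadjusted p under 0.05 in edgeR, and DESeq2 called 0, with no adjusted p for Fosl2. These genes too were picked after the values were seen.

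Other genes higher in duct, outside the rule for named genes, were Rhov, Fhl2, Cstb, Gprc5a, Vps37b, Dstn, Cxcl17, Chac1, Ppp1r2, Lmna, Spint1, Ccrn4l, Sfn, Ralb, Dbndd2, Tnfrsf12a, S100a16, Anxa8, Capn2, Aqp5 and Ifrd1. Of the UMIs of Cxcl17, a mucosal chemokine, 23.3% were expected from other wells, and over all 56 genes this share had a median of 5.53%, against 6.51% over all genes tested. The mean nipple level was above the mean TEB level for all 50 genes higher in duct and above the mean duct level for 30 of them, which was not tested here. The 50 genes were chosen for TEB levels below duct in these same data, which favours the first count. Neither count has a share over all genes tested beside it.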

How the data were processed

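Single cells of 16 fragments were measured by 3' RNA-seq with UMIs. The authors deposited 1 table of UMI counts, not normalised, with 17788 rows (67 spike-ins, 0.758% of the UMIs). The submitters' processing notes name Trim Galore, FastQC, UMI-tools, STAR and featureCounts and the build mm10, and give no versions. Titles gave the fragment of each cell and labels its location.

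Cells were kept at the limits given above, with no doublet caller, and classed by mean z-score. Counts were summed per fragment (at least 5 cells) over all 3 locations and tested with edgeR 4.0.16 (R 4.3.3; TMM, filterByExpr, robust quasi-likelihood fit, Benjamini-Hochberg over all genes tested, threshold 0.05), duct minus TEB. The difference between ER- and ER+ luminal cells was the class by location term with the fragment as a block. The study tested cells, but cells of a fragment are not replicates. The expected share from other wells of a gene was taken from the sum of its fragment. Exact permutation tests used scipy 1.17.1. Scripts were tested on simulated data. Gene positions are from GENCODE M21.

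Outside the class rule, the genes named were, in each direction, the 10 with the smallest p at 50 CPM or more, the 3 with the largest difference without overlap, up to 4 called members of each list, and the 5 with the smallest p of the class by location term. The members and lists were chosen with earlier results of these data known. Alternatives covered scaling, filters, cell limits, class margins, thinning, DESeq2 1.42.0, blocks and leaving out each fragment. Intervals cover counting error only. Values of some genes that passed the test are not reported here.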

Additional observations from a re-analysis of the deposited data

Results flagged for a closer look

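In groups of 5 or 6 fragments, 5 of the 66 groups of values looked at held a fragment far from the others by Dixon's criterion, where chance gives about 1 in 20. Anxa2 was high in duct fragment 31 (3039 CPM) and low in TEB fragment 42 (858 CPM). Gpc6 was high in duct fragment 52 (138 CPM), Slc2a1 was high in duct fragment 61 (486 CPM), and Myc was low in TEB fragment 42 (49.4 CPM).

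For 11 named genes the duct minus TEB difference in ER- luminal cells differed from that in ER+ luminal cells by the test of the difference itself. On the log2 scale the difference between classes was 1.34 for Krt7, 1.28 for Lgals3, 0.92 for Anxa2, 0.81 for S100a6, 1.82 for Elf3, 0.73 for Myl12a, 0.87 for Anxa1, 0.59 for S100a10 and 1.56 for Plaur. It was -0.78 for Fth1 and -1.02 for Tmem258.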

How the results depend on the processing

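The 31 named genes past the threshold kept their direction in all 833 alternative values; 617 kept the call and 216 did not. The count of 56 genes was 137 without the filter on low counts, 115 in DESeq2 (which gave no adjusted p for 2810 of the 6576 genes), 37 with a replicate block on the title number (13 of them among the 56), 10 with a replicate block on its first digit and 9 with only title numbers starting with 3 (8 of the 56 in each). It was 26 to 55 when 1 fragment was left out and 42 to 64 in the other planned settings; with TEB fragment 43 kept, an alternative chosen after seeing the data, it was 70. Deviations of the fragments numbered 31 and 32 from their group means correlated at -0.0017 and 0.013 between duct and TEB. With no value for unmatched fragments beside them, these cannot tell whether the numbers pair fragments. The main fit held no block because the labels do not say what a number marks. The count of 35 genes for the difference between classes was 81 without the filter, 18 with no replicate block and 20 to 35 without 1 fragment. RNA per spike-in UMI differed by -0.23 to -0.099 on the log2 scale without 1 fragment, and the mitosis sum by -0.53 to -0.061. The cause of these changes was not tested. Sums of 5 to 20 cells limit what low genes can show.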
